A study of Mus musculus with 4 samples.

Results

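The cytoplasmic ribosomal protein genes were examined in the deposited chromatin immunoprecipitation and sequencing (ChIP-seq) peak lists of a mouse pre-B acute lymphoblastic leukemia culture. They were chosen by symbol: autosomal protein-coding genes named Rpl or Rps plus digits, with an optional letter, and Rplp0, Rplp1, Rplp2 and Rpsa. This gave 77 of the 20661 autosomal protein-coding genes of the gene table, and 4 X-linked genes of the same pattern were left out. Every library came from the same pre-B leukemia cells, of strain C57BL/6J, overexpressing BCR-ABL1 and p19 null. The comparison was between antibodies: 1 library each for PHF6, acetylated lysine 27 of histone H3 (H3K27ac) and trimethylated lysine 27 (H3K27me3), beside an input DNA library not analysed here. With 1 library per antibody, no difference has a replicate check, no test was made, and intervals cover counting error only.

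Cytoplasmic ribosomal proteins form the large (Rpl) and small (Rps) subunits of the ribosome together with ribosomal RNA, and their genes are among the most actively transcribed in growing cells. Their transcripts begin with a terminal oligopyrimidine (TOP) tract, a C followed by a run of C and T, which ties their translation to growth signalling. PHF6 is a chromatin protein with PHD-type zinc fingers, known from nucleoli and ribosomal DNA and mutated in leukemia. H3K27ac marks active promoters and enhancers, whereas H3K27me3 is laid down by Polycomb repressive complex 2 at silent genes.

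Positions of peaks are mm9, while the start sites at hand are those of RefSeq for GRCm38.p6. Each start was therefore moved to mm9 by the local offset at which H3K27ac summits with a height of 200 or more best matched the starts of the 50 nearest genes outside the family. Of the 77 genes, 57 had a listed start, and 51 of these were placed. The other 20 had no listed start, so both ends of the gene were used, and 14 of them were placed. The 12 genes not placed included Rpl7, Rpl17, Rpl18, Rpl21, Rpl31, Rpl34, Rpl37a, Rplp2, Rps9, Rps14 and Rps20. For Rpl17 and Rps14 the start table holds no neighbours. A stepwise placement along each chromosome, chosen after seeing the data, placed 54 genes by start and 15 by gene ends. The offsets of both methods lay within 500 bp of each other for 59 of the 61 genes placed by both. The exceptions were Rpl15 and Rps23.

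The promoters of 8 members are shown because they span the states found below. Rps6, Rps10, Rpl27a, Rpl28 and Rps24 carried peaks of all 3 antibodies. Rpl39l carried none, and Rpl10l and Rpl3l carried a low PHF6 peak without acetylation. The sequences are RefSeq GRCm38.p6, 5′ to 3′ on the gene's strand, from 100 bases before to 15 bases from the start. Capitals mark a TOP-like tract and the letters CCGGAAG or CTTCCGG, the core site of ETS-family factors such as GABP.
Rps6 (chr4:86857353-86857467, minus strand): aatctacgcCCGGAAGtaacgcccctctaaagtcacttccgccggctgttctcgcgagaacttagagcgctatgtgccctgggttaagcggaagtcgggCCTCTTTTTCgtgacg
Rps10 (chr17:27635230-27635344, minus strand): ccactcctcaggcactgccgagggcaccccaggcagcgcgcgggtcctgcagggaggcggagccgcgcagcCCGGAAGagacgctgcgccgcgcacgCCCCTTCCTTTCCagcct
Rpl27a (chr7:109519095-109519209, plus strand): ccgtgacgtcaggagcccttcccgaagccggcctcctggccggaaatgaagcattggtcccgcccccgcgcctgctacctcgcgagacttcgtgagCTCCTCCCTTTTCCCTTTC
Rpl28 (chr7:4792865-4792979, plus strand): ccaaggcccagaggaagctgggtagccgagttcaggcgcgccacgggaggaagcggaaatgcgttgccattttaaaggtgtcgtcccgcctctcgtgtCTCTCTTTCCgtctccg
Rps24 (chr14:24490578-24490692, plus strand): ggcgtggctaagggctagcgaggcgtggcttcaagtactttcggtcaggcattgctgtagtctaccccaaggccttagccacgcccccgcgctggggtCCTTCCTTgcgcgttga
Rpl39l (chr16:10170128-10170242, plus strand): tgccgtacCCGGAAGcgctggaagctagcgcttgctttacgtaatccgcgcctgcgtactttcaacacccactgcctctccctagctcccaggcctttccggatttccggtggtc
Rpl10l (chr12:66284387-66284501, minus strand): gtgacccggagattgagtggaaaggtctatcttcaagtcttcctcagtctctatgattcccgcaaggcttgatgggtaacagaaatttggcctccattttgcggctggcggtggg
Rpl3l (chr17:24727726-24727840, plus strand): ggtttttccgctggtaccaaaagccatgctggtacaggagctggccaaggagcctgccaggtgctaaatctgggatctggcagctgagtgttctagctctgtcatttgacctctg

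A TOP-like tract, defined as a C at or within 5 bases of the start followed by at least 5 more C or T, was found in 26 of the 57 members with a listed start (45.6%). It was found in 12% of all 16456 genes of the start table and in 12.8% of the genes with an H3K27ac summit of 200 or more. The ETS letters, on either strand from 250 bases before to 50 bases after a start, were found in 24 of 57 members (42.1%), in 13.3% of all genes and in 25.2% of the strongly acetylated ones. The SP1 letters GGGCGG were found in 57.9% of members, 50.2% of all genes and 74.7% of the strongly acetylated ones. The TATA letters TATAAA were found in 8.77% of members, 15% of all genes and 7.47% of the strongly acetylated ones. The YY1 letters AAGATGGC were found in 8.77%, 3.59% and 6.84%, and the E-box CACGTG in 10.5%, 9.01% and 12.7%, in the same order. A gene was counted when any of its starts held the letters. These are matches of letters and not measured sites.

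The 3 libraries gave lists of 77749 PHF6, 32388 H3K27ac and 5616 H3K27me3 peaks. Each peak carries the authors' own caller score and summit height, a whole-number pileup that reaches 400 in each list. Both were used to describe peaks within a list, and heights were not compared between antibodies because read totals are unknown. The H3K27ac caller score was exactly 3100 in 42 of the 45 acetylated members with a known start. It does not rank them, so heights are given instead. Pre-B marker genes were acetylated in 9 of 11 placed cases, 7 of them with a summit of 200 or more, while Rag1 and Rag2 had no H3K27ac peak. Of all 12351 genes placed by start, 68.3% had an H3K27ac peak and 5264 had a summit of 200 or more. The 4 placed myeloid markers, Csf3r, Elane, Lyz2 and Mpo, had no H3K27ac peak, and 3 of 7 placed T cell markers had one, each below 200. Of the erythroid markers 1 of 4 was acetylated, Klf1 at 200 or more, and of the muscle and germ line markers 2 of 4 each, below 200. An H3K27me3 peak was found at 2 pre-B, 2 myeloid and 1 erythroid markers and at none of the other lists.

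Most ribosomal protein genes were strongly acetylated at the start. An H3K27ac peak lay within 1 kb of the start in 45 of 51 members (88.2%, 95% exact interval 76.1 to 95.6), beside 68.3% of all 12351 genes placed by start. The median summit height was 321 (quartiles 284 and 339) in the acetylated members and 254 (quartiles 95 and 319) in all acetylated genes. A height in the top 10% of the list was reached by 27 of the 45 (60%), against 28.9% of all acetylated genes. The H3K27ac peak was longer than the gene in 16 of 45 members (35.6%), against 4.98% of other acetylated genes. The members are short genes, with a median length of 3269 bp against 20294 bp in all placed genes. Median H3K27ac peak widths differed less, 2520 bp in members and 2003 bp in all genes with a peak. Other short genes were not compared in this respect. The genes placed by their ends gave the same picture, with an H3K27ac peak in 14 of 14 (63.9% of all 2676 such genes) and a median height of 314.5.

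The tallest H3K27ac summits stood at Rps19, Rpl19, Rpl27a, Rpl22, Rpl13a, Rps27l, Rpl10a, Rpsa, Rps6 and Rpl11, with heights from 366 down to 342. Rps19, a small-subunit protein mutated in Diamond-Blackfan anaemia, led both rankings of members placed by start. Rps19 had an H3K27ac height of 366 and a PHF6 height of 59, with no H3K27me3 peak; its PHF6 peak lay at mm9 chr7:25668743-25670526. Rpl22, a large-subunit protein with a role in lymphocyte development, had an H3K27ac height of 360, a PHF6 height of 39 and no H3K27me3 peak. The lowest acetylated members were Rps28 at 137, Rpl24 at 198, Rps12 at 203, Rpl41 at 232 and Rpl4 at 243. Rps28 and Rpl24, both at the low end, also had no PHF6 peak.

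Some of these summits lay away from the member's own start. The H3K27ac summit used for Rpl13a was 4424 bp from its start. The summits used for Rpl4 lay nearer to an end of Zwilch, and those used for Rpl41 nearer to the start of Zc3h10. These 2 neighbours were named after their values were seen. Start sites of another gene lay within 1 kb of 8 members: Rpl12 (Lrsam1), Rpl18 (Sphk2), Rpl35a (Iqcg), Rpl7a (Med22), Rpl9 (Lias), Rps18 (Vps52), Rps27 (Rab13) and Rps28 (Ndufa7). At such shared promoters the lists do not tell which gene a peak belongs to.

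PHF6 lay at most of the same starts. A PHF6 peak was found within 1 kb of the start in 44 of 51 members (86.3%, 73.7 to 94.3), beside 75.1% of all placed genes. With a caller score of at least 100 the members' share was 74.5%, and all genes were not compared at that score. The median PHF6 height was 36.5 (quartiles 32 and 41, range 20 to 59), against 33 (27 and 40) for all genes with a PHF6 peak. The top 10% of the list by height was reached by 30 of the 44 peaks (68.2%), against 48.4% of all genes with a PHF6 peak. The caller score went the other way, with a median of 174.005 in members and 263.53 in all genes with a PHF6 peak. Among the genes placed by their ends, 12 of 14 had a PHF6 peak (76.8% of all such genes).

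PHF6 at the members was close to that at genes with equally strong acetylation. Of the 43 members with an H3K27ac height of 200 or more, 42 had PHF6 (97.7%), and so did 95.8% of all genes in that range. Their median PHF6 heights were 37 and 38. Within the class of H3K27ac heights from 200 to under 250, the median PHF6 height was 32 in the members and 33 in other genes. From 250 to under 300 it was 31 and 35, from 300 to under 350 it was 38.5 and 40, and from 350 to 400 it was 43.5 and 46. The members' median was thus somewhat lower in each of these classes. PHF6 and H3K27ac heights were related over the 42 members with both peaks (Pearson r 0.614, Spearman rho 0.603). Without the 2 genes farthest from the median H3K27ac height, r was 0.646 and rho 0.581. Over all 7766 genes with both peaks r was 0.392 and rho 0.616. These correlations are across genes of the same 2 libraries and describe them; genes are not replicates.

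**Figure D1:**
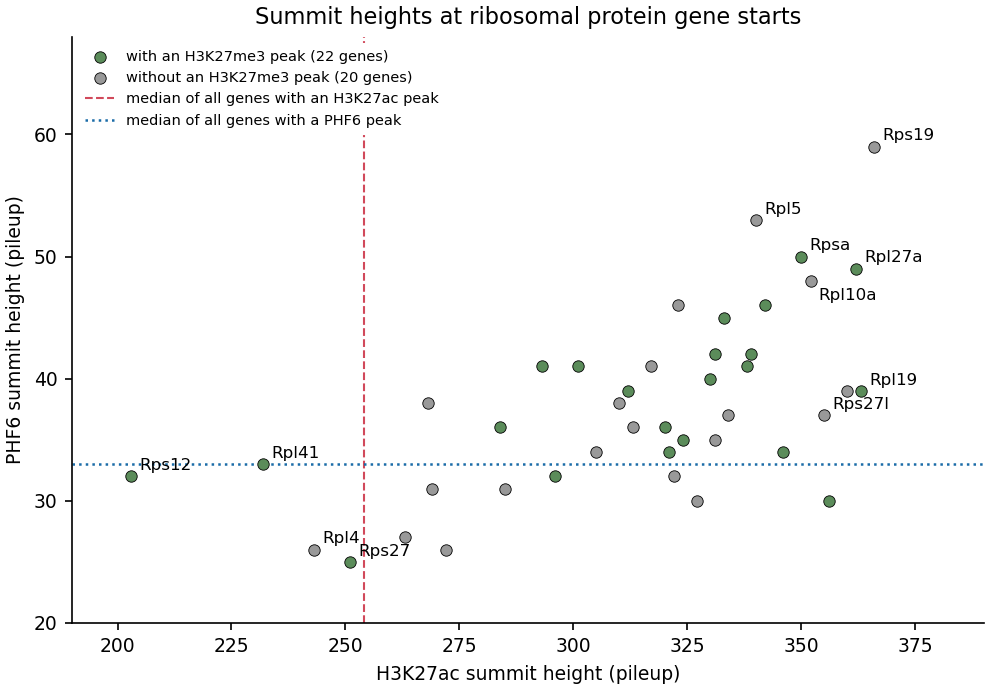
PHF6 summit height (y axis) against H3K27ac summit height (x axis), both as the authors' pileup, for the 42 ribosomal protein genes with both peaks at a placed start; green points have an H3K27me3 peak and grey points do not. Dashed and dotted lines are the medians of all genes, 254 for H3K27ac and 33 for PHF6; Rps19 stands at the upper right, and green and grey points are mixed over most of the range.

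The tallest PHF6 summits by start were those of Rps19 at 59, Rpl5 at 53, Rpsa at 50, Rpl27a at 49, Rpl10a at 48, Rpl11 and Rplp0 at 46, Rpl23 at 45, and Rps10 and Rps24 at 42. Rpl5 and Rpl11 are the large-subunit proteins that bind MDM2 and so link ribosome assembly to p53, and Rplp0 carries the ribosomal stalk. Rpl5 had an H3K27ac height of 340 and no H3K27me3 peak. Rpl11 had an H3K27ac height of 342 and an H3K27me3 height of 22. At the low end were Rpl3l at 20, Rpl10l at 21, Rps27 at 25, and Rpl4 and Rps26 at 26.

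One member stood far above the rest. Rpl32, a large-subunit protein gene placed by its ends, carried a PHF6 peak of height 180 at mm9 chr6:115756613-115759500, with an H3K27ac height of 355 and an H3K27me3 height of 35. The other 11 PHF6 peaks of members placed by their ends ranged from 34 to 55, so the Rpl32 peak did not overlap them. Of all 77749 PHF6 peaks, 35 were as tall or taller, itself included. Rpl32 lies outside the ranking by start and was singled out after its value was seen.

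In all, 7 of the 51 starts had no PHF6 peak: Rpl15, Rpl24, Rpl32l, Rpl39l, Rps3, Rps23 and Rps28. Rps3, a small-subunit protein at the entry of the messenger RNA channel, had an H3K27ac height of 260 and an H3K27me3 height of 47 without PHF6. For Rpl15 and Rps23 the missing peaks rest on the placement. With the stepwise placement Rpl15 had a PHF6 height of 36 and an H3K27ac height of 310, and Rps23 had 36 and 346. Under that placement PHF6 was found at 49 of 54 starts (77% of all genes so placed), H3K27ac at 50 of 54 (70.8%) and H3K27me3 at 23 of 54 (3.82%). By gene ends, it found PHF6 in 13 of 15 members (74.4% of all such genes), H3K27ac in 15 of 15 (62.3%) and H3K27me3 in 12 of 15 (11.4%). It also gave values for genes that the first method left out. Rpl18 had a PHF6 height of 53 and an H3K27ac height of 326, Rpl31 had 42 and 293, Rpl37a 30 and 278, Rplp2 39 and 318, and Rpl21 38 and 346. Rpl34 had heights of 45 for PHF6, 343 for H3K27ac and 21 for H3K27me3. Rps20 had 47, 339 and 46 in the same order. All of these lay between the lowest and highest heights of the genes placed at first.

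The members that lacked acetylation were mostly the copies whose symbol ends in the letter l. Rpl3l is known as the paralogue used in striated muscle, and Rpl10l and Rpl39l as paralogues used in the testis. Of the 5 such members, Rpl3l, Rpl10l, Rpl32l and Rpl39l had no H3K27ac peak. Rpl10l had a PHF6 height of 21 and Rpl3l one of 20, at the low end of the family, and Rpl32l and Rpl39l had no peak of any of the 3 antibodies. Rps27l, a copy known as a p53 target, differed from them with an H3K27ac height of 355 and a PHF6 height of 37. Without the 5 copies, 44 of 46 members were acetylated (68.3% of all placed genes), and under the stepwise placement 49 of 49 (70.8% of all genes so placed). Of the promoters printed above, Rpl39l holds the ETS letters as Rps6 and Rps10 do and yet had no peak.

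**Figure D2:**
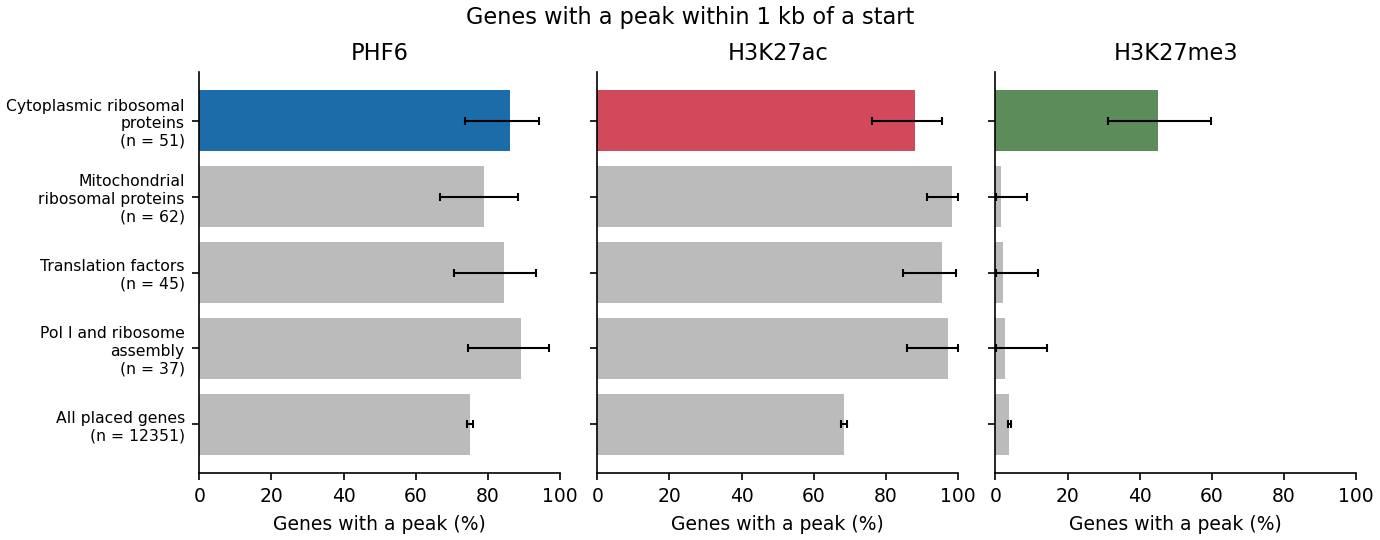
Share of genes with a PHF6, H3K27ac or H3K27me3 peak within 1 kb of a placed start (x axes, percent), for cytoplasmic ribosomal protein genes (coloured), 3 lists of related genes and all placed genes; bars are shares and whiskers are 95% exact binomial intervals of counting error. For H3K27ac the 4 lists lie between 88.2 and 98.4%, the cytoplasmic ribosomal protein genes lowest, against 68.3% of all genes; for H3K27me3 the cytoplasmic ribosomal protein genes reach 45.1% while the other lists stay under 5%.

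H3K27me3 peaks were frequent at ribosomal protein genes. An H3K27me3 peak lay within 1 kb of the start in 23 of 51 members (45.1%, 31.1 to 59.7), beside 3.85% of all placed genes. Among the genes placed by their ends, it was found in 11 of 14 (11.4% of all such genes). In all, 34 of the 65 placed members had an H3K27me3 peak, a count that pools both kinds of search and has no single background. Peaks of all 3 antibodies were found by start in 22 of 51 members and in 402 of all 12351 genes. By gene ends they were found in 9 of 14 members and in 239 of all 2676 such genes. All 23 with a known start had an H3K27ac height of 203 or more. Of the members with an H3K27ac height of 200 or more, 23 of 43 had H3K27me3 (53.5%, 37.7 to 68.8), against 106 of 5221 other genes in that range (2.03%, 1.67 to 2.45). Members made up 23 of the 129 genes with H3K27me3 and such acetylation.

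H3K27me3 peaks were rare in the other lists of genes for protein synthesis. Of the placed genes, H3K27me3 was found at 1 of 62 mitochondrial ribosomal protein genes (Mrpl49), 1 of 45 translation factors (Eef1a1, height 66) and 1 of 37 genes of RNA polymerase I and ribosome assembly (Taf1c). H3K27ac was found in 61, 43 and 36 of them, with median heights of 275, 328 and 274.5. PHF6 was found in 49, 38 and 33. The interval of the cytoplasmic ribosomal protein share was 31.1 to 59.7% and that of the mitochondrial list 0.0408 to 8.66%. Both cover counting error only and are no test. The 2 lists also differed in median gene length, 3269 against 7690.5 bp. Both subunits took part: 11 of 30 large-subunit starts and 12 of 21 small-subunit starts carried the mark.

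The genes with the mark were, for the large subunit, Rpl6, Rpl11, Rpl12, Rpl13, Rpl13a, Rpl19, Rpl23, Rpl26, Rpl27a, Rpl28 and Rpl41. For the small subunit they were Rps2, Rps3, Rps6, Rps10, Rps12, Rps15, Rps16, Rps21, Rps24, Rps25, Rps27 and Rpsa. The median height was 23 (range 14 to 52) in members and 17 in all genes with a peak, and the median width was 917 bp against 1192 bp. The top 10% of the H3K27me3 list was reached by 4 of the 23 peaks (17.4%), against 10.3% of all genes with a peak. At Rpl11, Rpl27a, Rps12, Rps16, Rps21 and Rpsa the caller score was low, from 62.81 to 74.03, where the list minimum was 60.01. With a score of at least 100, the mark was found in 17 of 51 members, and all genes were not compared at that score.

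The tallest were at Rpl41 with 52, Rps15 with 51 and Rps3 with 47. Rps15, a small-subunit protein, had H3K27ac and PHF6 heights of 330 and 40, and its H3K27me3 peak lay at mm9 chr10:79755971-79757152. Rps6, the target of S6 kinase, had heights of 346 for H3K27ac, 34 for PHF6 and 36 for H3K27me3, the last at mm9 chr4:86501379-86502674. Among the genes placed by their ends, Rpl8 reached 64 and Rplp1, a stalk protein, 44. Rpl3 and Rps27a, placed by their ends, carried H3K27ac and H3K27me3 but no PHF6 peak. The Rpl41 peak was nearer to Zc3h10 than to Rpl41.

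**Figure D3:**
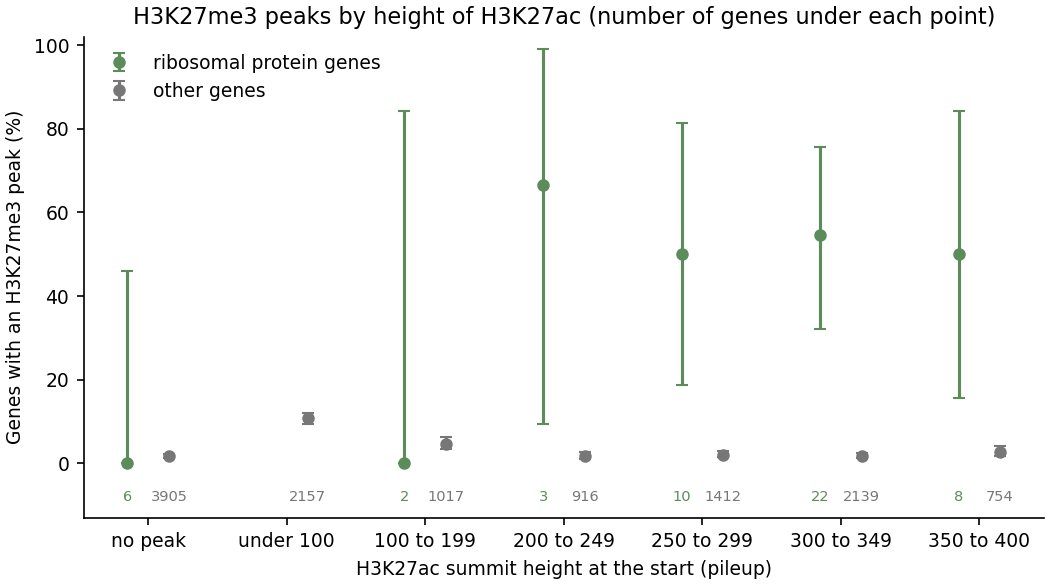
Share of genes with an H3K27me3 peak (y axis, percent) by the H3K27ac summit height at the start (x axis, the authors' pileup), for ribosomal protein genes (green) and other genes (grey); whiskers are 95% exact binomial intervals and the numbers below are genes per class. In the 4 classes from 200 upward, 50.0 to 66.7% of ribosomal protein genes carry the mark against 1.75 to 2.79% of other genes, with wide intervals for the family.

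In genes outside the family, H3K27me3 was most frequent where acetylation was present but weak. It was found in 10.8% of genes with an H3K27ac height under 100 (232 of 2157), in 4.72% from 100 to under 200 and in 1.82% from 300 to under 350. In the members the shares were 2 of 3, 5 of 10, 12 of 22 and 4 of 8 in the classes from 200, 250, 300 and 350 upward. Without an H3K27ac peak it was found in 66 of 3905 other genes (1.69%). None of the 6 members without H3K27ac had the mark, which allows a share of up to 45.9% (95% exact interval). Neither Rps28 nor Rpl24, the 2 members with heights from 100 to under 200, had it.

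Gene length moved with the mark. Ribosomal protein genes are short, with a median length of 3269 bp in the 51 placed starts against 20294 bp in all placed genes. Among strongly acetylated genes under 5 kb, 20 of 34 members (58.8%, 40.7 to 75.4) and 46 of 631 other genes (7.29%, 5.39 to 9.60) had H3K27me3. At 5 kb or more the counts were 3 of 9 (33.3%, 7.49 to 70.1) and 60 of 4590 (1.31%, 0.999 to 1.68). The members' share was higher within both length classes.

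The H3K27me3 summits lay inside the genes rather than at the start. Relative to the estimated start, the median summit position was +971 bp for H3K27me3 (range 463 to 2534), +230 bp for PHF6 and +212 bp for H3K27ac. All 23 H3K27me3 summits were downstream and within the length of the gene. In other genes with H3K27me3 the median was +351 bp and 69.2% of summits were downstream. In the 106 of them with an H3K27ac height of 200 or more, the median was +676 bp and 68.9% were downstream. Distances from a start carry the error of the offset, but distances between summits do not. The H3K27me3 summit lay downstream of the H3K27ac summit in 21 of 23 members, by a median of 766 bp (quartiles 472 and 955.5). Rpl41 and Rpl13a were the other 2, and both had an H3K27ac summit over 1 kb from their own start. In 22 of 23 the H3K27me3 summit was still inside the H3K27ac peak, and 18 of the 22 with PHF6 had an H3K27me3 peak that overlapped the PHF6 peak. Of the 11 genes placed by their ends, 7 had the H3K27me3 summit inside the H3K27ac peak. The order of the H3K27me3 and H3K27ac summits and these overlaps were not counted in other genes. These counts therefore have no background and do not set the family apart. At Rpl3, Rpl23a and Rpl32 the peaks of both marks did not overlap, and their summits were 5189, 1924 and 2829 bp apart. Rpl3 had an H3K27ac height of 198.

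**Figure D4:**
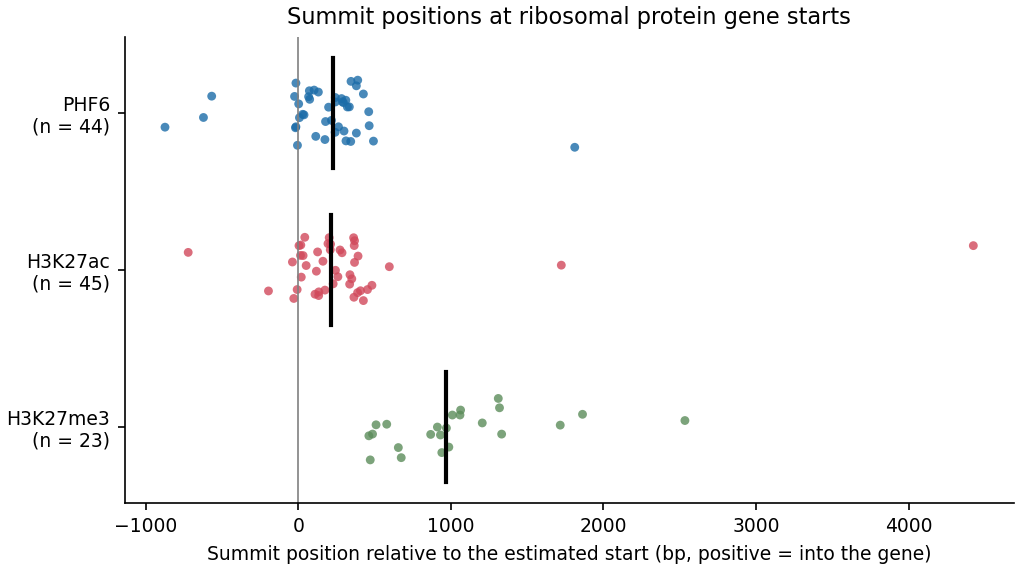
Summit positions relative to the estimated start (x axis, bp, positive into the gene) for the PHF6, H3K27ac and H3K27me3 peaks of ribosomal protein genes; each point is 1 gene, black bars are medians, and vertical scatter has no meaning. PHF6 and H3K27ac cluster near the start, with medians of 230 and 212 bp, and every H3K27me3 summit lies at 463 bp or further in, with a median of 971 bp.

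The count of members with H3K27me3 moved with the window. Within 500 bp of the start the mark was found in 13 of 51 members (25.5%; all genes 3.08%), and within 2 kb in 29 of 51 (56.9%; all genes 5.30%). Counting a peak by its summit within 1 kb also gave 13 of 51 (25.5%; all genes 2.74%). Ribosomal protein genes have many processed copies elsewhere in the genome. The sources used here do not say how the authors treated reads that match several places, and the part of such reads in these peaks was not tested.

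Members with and without H3K27me3 overlapped in the other measures. The median H3K27ac height was 324 (203 to 363) in the 23 with the mark and 315 (137 to 366) in the 22 acetylated members without it. The median PHF6 heights were 39 and 36.5, and the median gene lengths 3175 and 3702.5 bp. A TOP-like tract was found in 10 of 23 and 8 of 22, and the ETS letters in 12 of 23 and 7 of 22.

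PHF6 and H3K27ac summits nearly coincided at the members. Over the 42 genes with both peaks the median distance between summits was 46 bp (quartiles 11 and 98), against 87 bp (31 and 274) over all 7766 genes with both. The summits lay within 100 bp of each other in 33 of 42 members (78.6%) and in 54.1% of all such genes. The related lists were close to the members: the median distance was 35.5 bp (75% within 100 bp) in translation factors, 47 bp (66.7%) in genes of RNA polymerase I and ribosome assembly, and 57 bp (69.4%) in mitochondrial ribosomal protein genes. At Rpl11 the distance was 5 bp and at Rps27 2 bp. The largest was 5045 bp, at Rpl13a.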

How the data were processed

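Peak positions and widths, summit heights and caller scores came from the deposited lists. Per the labels' protocols, formaldehyde-fixed nuclei were sonicated and the libraries were read from a single end. The submitters' processing notes name MACS 1.4.0, Bowtie2, SAMtools and build mm9. By the names of the deposited lists, local background was switched off in calling PHF6 and H3K27ac peaks, with no such mark for H3K27me3. The sources used here do not say whether the input library was the control. The deposited score in each peak list (at least 60) and the deposited signal in each summit list (pileup height) are the authors' values.

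The members and gene lists were chosen with earlier results of these data known. An offset was accepted when it matched at least 5 more starts, within 1 kb, than any offset over 5 kb away, and members never entered an offset. Where several peaks lay within 1 kb of a start, the tallest was used. Both placements and the peak search were run on simulated data with planted offsets. The simulated share of starts with a summit was the one that the stepwise placement assumes, so this run does not measure placement errors in the real lists. Named genes are members that lacked a PHF6 or H3K27ac peak, had H3K27me3, were not placed or end in l, and the extremes in height (10 tallest, 5 lowest); a few genes are counted but not reported here by name. Intervals are exact (Clopper-Pearson, 95%). Depth is unknown, as the lists give no read totals. Values were computed in Python 3.11.15 with pandas 2.3.3, scipy 1.17.1 and numpy 2.4.6, and drawn with matplotlib 3.10.9. Alternatives changed the window, the score minimum, the neighbours and summits behind the offset, the choice of summit and the genes included; the stepwise placement was added after seeing the data.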

Additional observations from a re-analysis of the deposited data

How the results depend on the processing

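Of 55 values recomputed under the alternatives, 52 stayed within the interval of the reported value. That interval covers counting error over genes and is wide. The alternatives reuse the same libraries and mostly the same genes, so it does not measure the spread between settings. The share of members with H3K27me3 was 25.5% with a window of 500 bp and also 25.5% when the summit had to lie within 1 kb. The share with H3K27ac was 95.7% without the copies whose symbol ends in l, beside 68.3% of all placed genes. A caller score of at least 100 gave shares of 74.5% for PHF6 and 33.3% for H3K27me3. These 2 shares were not compared with all genes at that score, so they have no background. Without the cut, the median PHF6 score was 174.005 in members and 263.53 in all genes with a peak. The median H3K27me3 score was 156.73 in members and 148.27 in all genes with a peak. Over the alternatives run, the median PHF6 height ranged from 36.5 to 37.5, the median H3K27ac height from 310 to 323.5 and the median distance between summits from 46 to 52 bp. Offsets from 25 neighbours placed 31 starts, and offsets from summits of 300 or more placed 29. No paired analysis was possible because 1 library stood for each antibody. Read totals are unknown, so a missing peak says only that none passed the authors' threshold.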

Other observations

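Several genes of the ribosome fall outside the symbol rule and were looked up after the data had been seen. Rps3a1, Fau, Rack1, Rpl36al and Rpl22l1 each carried peaks of all 3 antibodies. Rps3a1, a small-subunit protein, had heights of 42 for PHF6, 345 for H3K27ac and 29 for H3K27me3. Fau, which encodes a ubiquitin-like protein fused to a small-subunit protein, had heights of 28, 297 and 33 in the same order. Rack1, a scaffold on the small subunit, had 38, 247 and 53, and its H3K27me3 summit lay 1475 bp into the gene. Rpl36al had 47, 351 and 28, and Rpl22l1 had 24, 279 and 23. Rpl7l1 had an H3K27ac height of 94 and no peak of the other antibodies.

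The tallest H3K27me3 summits at strongly acetylated starts outside the family were at Fth1 (ferritin heavy chain) with 138, H2-D1 and H2-K1 (class I histocompatibility genes) with 88 and 86, and Nfkbia (an inhibitor of NF-kappaB) with 81. Their H3K27ac heights were 351, 341, 329 and 345. Polg2, which encodes a subunit of the mitochondrial DNA polymerase, followed with an H3K27me3 height of 80, and its summit lay upstream of the start, at -2596 bp. Junb, a transcription factor of the AP-1 family, had an H3K27me3 height of 76 and Ubb, a ubiquitin gene, one of 74. At Junb and Ubb the summits lay 797 and 1210 bp downstream of the start.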
